A study of Mus musculus with 9 samples.

Results

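Long intergenic RNAs (lincRNAs) and antisense RNAs of mouse gastrocnemius, the large calf muscle, were described in 9 RNA-seq libraries. The genes were the rows of the deposited expression table typed lincRNA or antisense whose mean FPKM over the 9 libraries was at least 1, without Neat1, Malat1, H19, Meg3, Rian and Mirg. FPKM divides the fragments counted for a gene by its length and by the size of the library. The rule kept 142 of 4495 rows of these gene types, 88 lincRNAs and 54 antisense RNAs, from a table of 35275 genes. The genes were thus chosen by the mean FPKM over all 9 libraries, a value that uses no group. Their levels are given as a description without a test. The mice were wild type on a C57BL/6J background, 8 to 10 weeks old, and each carried an implanted osmotic minipump for 4 weeks. The pump delivered phosphate-buffered saline (PBS, 4 libraries, numbered 4, 5, 7 and 8) or ammonium acetate (AmAc, 2.5 mmol per kg each day, 5 libraries, numbered 4 to 8), a model of raised blood ammonia. The labels do not say that each library came from a different mouse, so the tests measure the spread between these libraries. No label used here gives the animals' sex.

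A lincRNA is a transcript that lies between protein-coding genes and has no long reading frame, and an antisense RNA is transcribed from the strand opposite to another gene. Some act in the nucleus on the chromatin or transcription of neighbouring genes, some bind proteins or microRNAs in the cytoplasm, some are hosts from which small nucleolar RNAs or microRNAs are cut, and a few encode short peptides. Many start beside the promoter of a coding gene and run away from it. In muscle, such RNAs have been described within the fast myosin heavy chain locus and near the genes of myogenic factors.

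Sequences are shown for the RNAs whose known function or position rests on a short stretch of bases. Oip5os1 (also called Cyrano and listed as 1700020I14Rik) carries a site with long complementarity to the microRNA miR-7 and is known in mouse to lead to the destruction of that microRNA. The site occupies bases 2935 to 2959 of its 8300-base transcript, at chr2:119602137-119602161 on the plus strand (GENCODE M21, GRCm38). Its first 13 bases and its last 8 bases are complementary to miR-7a-5p, with 4 unpaired bases of the site between them. In the microRNAs capitals mark the seed, bases 2 to 8 from the 5′ end, and in the site they mark the 8 bases that pair with the seed and the base before it. The transcript holds 2 stretches that match those 8 bases. The third sequence is miR-1839-5p, which lies inside an exon of 2900076A07Rik at chr7:81529919-81529940 on the plus strand. MicroRNA sequences are from RefSeq (GRCm38.p6).
miR-7a-5p: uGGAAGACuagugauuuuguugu
Oip5os1 site: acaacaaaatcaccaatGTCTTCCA
miR-1839-5p: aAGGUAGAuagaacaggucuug

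The promoters of 2 antisense RNAs that lie among genes of the contractile apparatus are shown as 250 bases before to 50 bases after the annotated start (RefSeq, GRCm38.p6). Gm15179 starts beside Speg, a muscle kinase gene, and runs towards Des, the gene of the intermediate filament desmin. Its promoter is at chr1:75374966-75375265 on the minus strand. Myhas, listed as Gm12300, starts near Myh4 and lies opposite Myh1, and its RefSeq promoter is at chr11:67237232-67237531 on the minus strand. The listed start of Gm12300, from which its distance to Myh4 is measured below, is 67237573 and lies outside that window. Capitals mark a match to the MEF2 motif, which reads the same on both strands and is bound by MEF2 factors that drive muscle genes. The motif was found in the window of Gm15179 and not in that of Gm12300. It was present in 3.19% of all 32851 RefSeq promoters of this length. It was also present in 11 of the 117 promoters (9.40%) matched by symbol to 93 of the RNAs described here. The sequence CAGCTG, bound by myogenic factors, reads the same on both strands and was present in 16.3% of all promoters and in 12 of the 117 (10.3%), and in neither window shown. The 117 belong to RNAs kept for their level in muscle and include several promoters of some RNAs. All promoters were not filtered by level, so these shares are not like for like. A match is a stretch of letters and no measured site.
Gm15179: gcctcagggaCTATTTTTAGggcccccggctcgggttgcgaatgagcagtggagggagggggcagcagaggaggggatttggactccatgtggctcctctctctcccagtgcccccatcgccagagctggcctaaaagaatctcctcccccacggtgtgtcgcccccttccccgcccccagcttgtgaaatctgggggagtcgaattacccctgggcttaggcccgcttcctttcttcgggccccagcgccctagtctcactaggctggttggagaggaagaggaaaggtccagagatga
Gm12300: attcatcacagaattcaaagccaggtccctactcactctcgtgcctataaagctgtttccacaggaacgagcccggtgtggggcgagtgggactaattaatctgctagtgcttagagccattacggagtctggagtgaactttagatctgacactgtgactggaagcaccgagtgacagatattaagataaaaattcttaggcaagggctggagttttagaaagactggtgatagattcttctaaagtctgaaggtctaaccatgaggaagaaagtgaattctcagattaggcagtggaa

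The libraries held 24930547 to 41780251 counted reads, recovered from the FPKM steps. Genes of skeletal muscle fibres summed to 75585 to 110084 FPKM per library, although Tnnc2, a fast troponin subunit, was listed at a mean of only 0.138 FPKM, and 5 neuron genes summed to at most 0.116. Some libraries stood apart. AmAc library 6 had the lowest value of the 9 libraries for 34.8% of the 11337 genes tested. In AmAc library 5 the skin genes summed to 71.2 FPKM and in AmAc library 7 the hepatocyte genes summed to 60.4 FPKM, against at most 1.33 and 7.27 in any other library. Endothelial genes summed to 91.3 to 106 FPKM in the PBS libraries and to 44.6 to 98.2 in the AmAc libraries, with 8 of 8 lower on average and 5 of 8 at an unadjusted p under 0.05. Erythroid genes summed to 167 to 221 against 108 to 164 FPKM, with 5 of 5 lower and all 5 at an unadjusted p under 0.05. Of all genes tested, 8.57% had such a p in limma. Lower too were 7 of 7 fibro-adipogenic, 6 of 6 macrophage, 6 of 6 Schwann cell and 5 of 5 tested adipocyte genes. So were 5 of 6 smooth muscle, 4 of 5 tenocyte and 2 of 3 tested satellite cell genes. Of the fibre genes tested 5 were higher and 6 lower, and all 6 skin and 4 tested hepatocyte genes were higher. The part of these cell types in the values of the long RNAs was not tested, and in whole muscle fewer cells of a type cannot be told apart from less RNA per cell. No source used here gives the strand setting of the counting, and reads of an antisense RNA and of the gene opposite to it may not be told apart.

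Most of the long RNAs were scarce. Their median level was 2.79 FPKM, with 52 between 1 and 2, 48 between 2 and 5, 31 between 5 and 20, and 11 at 20 or more. Of the 4495 rows of these types, 2589 (57.6%) were at 0 in all 9 libraries. One RNA, Yam1, exceeded all the others by more than an order of magnitude. The other 141 summed to 1082 FPKM, of which the 5 highest made up 40.9% and the 10 highest 54.1%. The RNAs were short, with a median listed length of 1523 bases for lincRNAs and 685.5 for antisense RNAs against 3065 for protein-coding genes of the same minimum level. They lay on all 19 autosomes, with 16 on chromosome 11, and none on X or Y, although 140 rows of these types and 273 of the 9557 protein-coding genes of that level were on X. The names below are those of the deposited table, and GENCODE M21 holds 134 of the 142 identifiers, 27 of them under another name. GENCODE M21 types 7 of the 134 as processed transcripts, 7 as bidirectional promoter RNAs, 2 as TEC (to be experimentally checked), 1 as a pseudogene and 1, 5430417L22Rik (Inafm2), as protein-coding. The RefSeq entry matched by name is protein-coding for 5 of the 142. For 1 of these, 4930516B21Rik, that entry is the coding gene Acvr2b, while its nearest coding gene here is Exog (93 bases). The type may therefore not be that of the RNA.

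**Figure D1:**
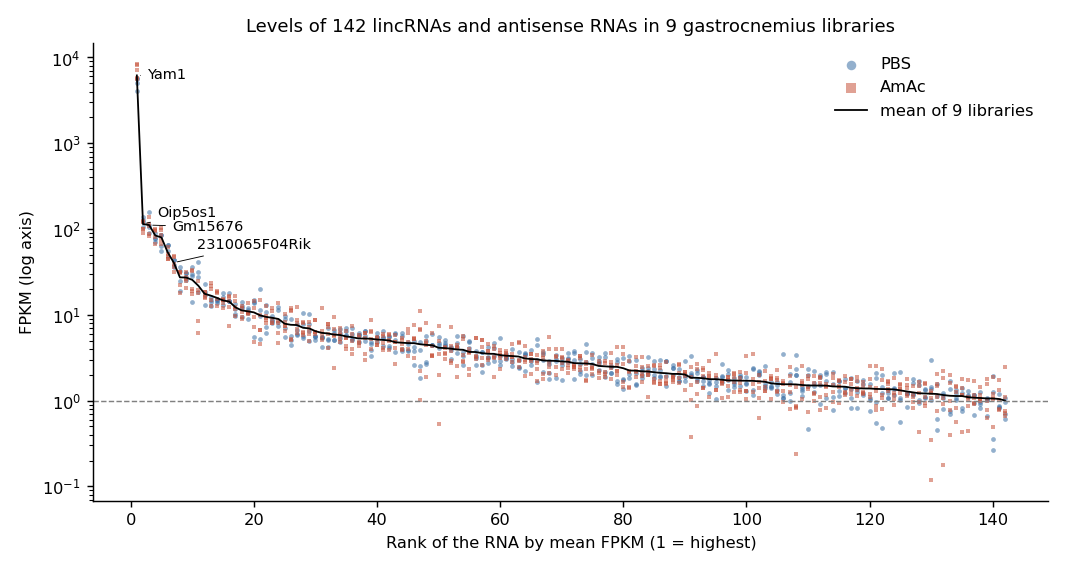
FPKM of the 142 RNAs (vertical log axis) in rank order of the mean (horizontal axis), with 1 point per library, circles for 4 PBS and squares for 5 AmAc libraries, and a black line for the mean of 9. A single value of 0 (RP23-293N22.1 in AmAc library 6) is not drawn, and the dashed line is the minimum mean of 1. After Yam1 at 6176 and Oip5os1 at 114 the levels fall to 1, steeply over the first ranks and more slowly after them.

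Yam1 (ENSMUSG00000098178, chr17:39846958-39848788, 1 exon) reached a mean of 6176 FPKM. GENCODE M21 names it Gm42418 and its RefSeq match by name is Rn18s-rs5, a pseudogene related to the RNA of the small ribosomal subunit. Its reads may therefore come from ribosomal RNA. In the PBS libraries it measured 4059, 5699, 5550 and 5079 FPKM, a mean of 5097 ± 741 (SD, n = 4). In the AmAc libraries it measured 8204, 7143, 5721, 8500 and 5624 FPKM, a mean of 7038 ± 1346 (SD, n = 5). AmAc libraries 4, 5 and 7 were above every PBS library, and AmAc library 6 was just above the highest of them (5721 against 5699). AmAc library 8, at 5624, was below that PBS library, so the groups overlapped. The log2 fold change was 0.46 (SE 0.19), with a limma adjusted p of 0.527. It was 0.65 without AmAc libraries 6 and 8, and 0.35 without PBS library 4 (limma unadjusted p of 0.121). The unadjusted p in limma was under 0.05 in 14 of 21 alternative fits. Yam1 took 0.933% ± 0.136 of all reads in PBS (SD, n = 4) and 1.29% ± 0.246 in AmAc (SD, n = 5). The other 141 RNAs together took 0.215% ± 0.0178 in PBS and 0.200% ± 0.00739 in AmAc.

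**Figure D2:**
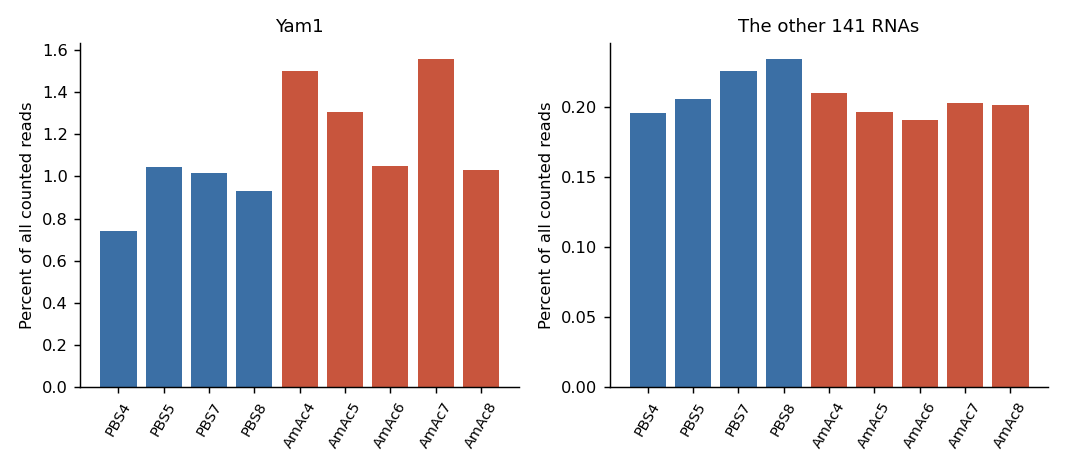
Percent of all counted reads (vertical axes, from 0) that fell on Yam1 (left) and on the other 141 RNAs (right) in each library, blue for PBS and red for AmAc. Yam1 ranged from 0.743% to 1.56%, and the other 141 RNAs together from 0.191% to 0.234%.

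Oip5os1 (chr2:119594297-119607502, 3 exons) came next in level, at a mean of 114 FPKM. Its values were 106, 121, 127 and 139 FPKM in PBS and 122, 99.7, 90.8, 124 and 100 FPKM in AmAc. The means were 123 ± 13.9 (SD, n = 4) and 107 ± 14.7 (SD, n = 5), with overlapping groups and a log2 fold change of -0.20 (SE 0.12). With each library's trend on gene length removed that value was 0.065, so its sign changed in that fit. Oip5, the coding gene next to it, was listed at a mean of 0.067 FPKM.

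The next in level lay near genes of glycolytic enzymes, which were picked from their neighbours after the values had been seen. Gm15676 (chr7:126800790-126809108), whose span ends 39 bases from Aldoa, the muscle aldolase, measured 107, 89.3, 159 and 112 FPKM in PBS and 138, 110, 88.6, 82.5 and 115 in AmAc. Gm12319 (chr11:70654741-70656493), which starts 709 bases from Eno3, the muscle enolase, and lies nearer to the actin-binding profilin gene Pfn1 (97 bases), measured 77.5, 71.3, 89.5 and 79.4 FPKM in PBS and 80.8, 93.9, 96.2, 66.4 and 101 in AmAc. Both sets of values overlapped between the groups, and the long RNAs stood at 0.818% and 2.04% of the FPKM of Aldoa and Eno3. Gm15676 has no entry in GENCODE M21 and no RefSeq match. Whether some of its reads belong to transcripts of Aldoa, at a mean of 13590 FPKM, was not tested. Among the RNAs named below, RP24-69I6.1, A830039N20Rik and Gm21807 also lack both entries.

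The next RNAs have less well known neighbours. RP23-281H4.5 (GENCODE name 2310040G24Rik) averaged 72.7 ± 14.9 FPKM in PBS (SD, n = 4) and 85.2 ± 15.2 in AmAc (SD, n = 5). The miR-1839 host 2900076A07Rik averaged 58.4 ± 8.51 in PBS and 49.9 ± 6.88 in AmAc, a log2 fold change of -0.22 (SE 0.13). RP24-69I6.1, near the forkhead gene Foxn3, averaged 28.8 ± 2.64 and 26.0 ± 3.97 FPKM. Gm11716, which lies opposite the lipid transfer gene Pitpnc1, was among the more variable, with 29.7, 35.7, 14.004 and 28.1 FPKM in PBS and 17.5, 20.1, 19.1, 33.2 and 32.6 in AmAc.

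The fast myosin heavy chain locus on chromosome 11 held a pair of these RNAs, separated by 91176 bases. The first, 2310065F04Rik, is known in mouse as linc-Myh, an RNA of fast fibres. It measured 44.1, 43.2, 36.4 and 38.0 FPKM in PBS and 31.8, 39.5, 49.1, 36.3 and 46.8 in AmAc. The AmAc values lay both above and below all PBS values, and the log2 fold change was -0.0032 (SE 0.13, 95% interval -0.29 to 0.29). The second, Gm12300 (Myhas), starts 456 bases from Myh4, the main fast myosin of this muscle, and overlaps Myh1, another fast myosin, by 515 exon bases. Gm12300 measured 25.0, 19.02, 35.7 and 32.1 FPKM in PBS and 31.9, 30.4, 31.4, 18.2 and 22.01 in AmAc, a log2 fold change of -0.055 (SE 0.21). Beside it, Myh1 averaged 605 ± 169 FPKM in PBS (SD, n = 4) and 324 ± 172 in AmAc (SD, n = 5), and its log2 fold change was -1.02 (limma unadjusted p of 0.0121). Myh4 had a log2 fold change of -0.28. The difference between Gm12300 and Myh1 was not tested.

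Further RNAs beside muscle genes were picked for the role of the neighbour after their values had been seen. Gm15179, whose promoter is printed above, measured 13.9, 9.49, 12.6 and 11.9 FPKM in PBS and 9.45, 8.97, 10.7, 11.9 and 12.6 in AmAc, with a log2 fold change of -0.15. Speg, whose start is 285 bases away, had a log2 fold change of -0.41 and Des, which Gm15179 overlaps by 220 exon bases, one of 0.071. A430046D13Rik, which starts 679 bases from the light chain gene Myl6b, averaged 10.8 ± 1.27 FPKM in PBS (SD, n = 4) and 11.1 ± 1.37 in AmAc (SD, n = 5). Gm17281, opposite the endocytic adaptor gene Pacsin3, averaged 5.41 ± 0.896 and 4.84 ± 0.927 FPKM, and RP24-155O13.4, near the calsarcin gene Myoz1, averaged 1.53 ± 0.208 and 1.97 ± 0.644 FPKM. Their groups overlapped in every case.

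The comparison of AmAc with PBS asked which RNAs differ after 4 weeks of ammonium acetate. No long RNA passed the adjusted threshold of 0.05. The test was limma on log2(FPKM + 0.5) over 11337 genes, of which 0 (0%) passed, with adjusted p-values of 0.527 and above. The unadjusted p was under 0.05 for 10 of the 142 RNAs (7.04%), beside 8.57% of all genes tested. Of these, 3 were higher in AmAc, beside 3.21% of all genes, and 7 lower, beside 5.36%. The values of 4 of the 142 did not overlap between the groups (2.82%), beside 2.13% of all genes. In 1 of the 4 the AmAc values were above all PBS values, a share of 0.704% beside 1.25% of all genes, and in 3 they were below, a share of 2.11% beside 0.873%. The share with an unadjusted p under 0.05 was no higher than that of all genes, and the shares of RNAs without overlap rest on 1 and 3 RNAs. The median log2 fold change was -0.022 over the 142 RNAs (67 higher, 75 lower) and -0.035 over all genes, with -0.0051 for lincRNAs and -0.046 for antisense RNAs. Without AmAc libraries 6 and 8 together the count of 10 became 3, beside 2.25% of all genes. It became 2 without PBS library 8, beside 2.73%. Without AmAc library 4, 5 or 7 it became 16, 11 or 19, beside 15.3%, 8.88% or 14.6% of all genes. With quantile normalization there were 12 (7 higher, 5 lower), beside 9.59% of all genes.

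**Figure D3:**
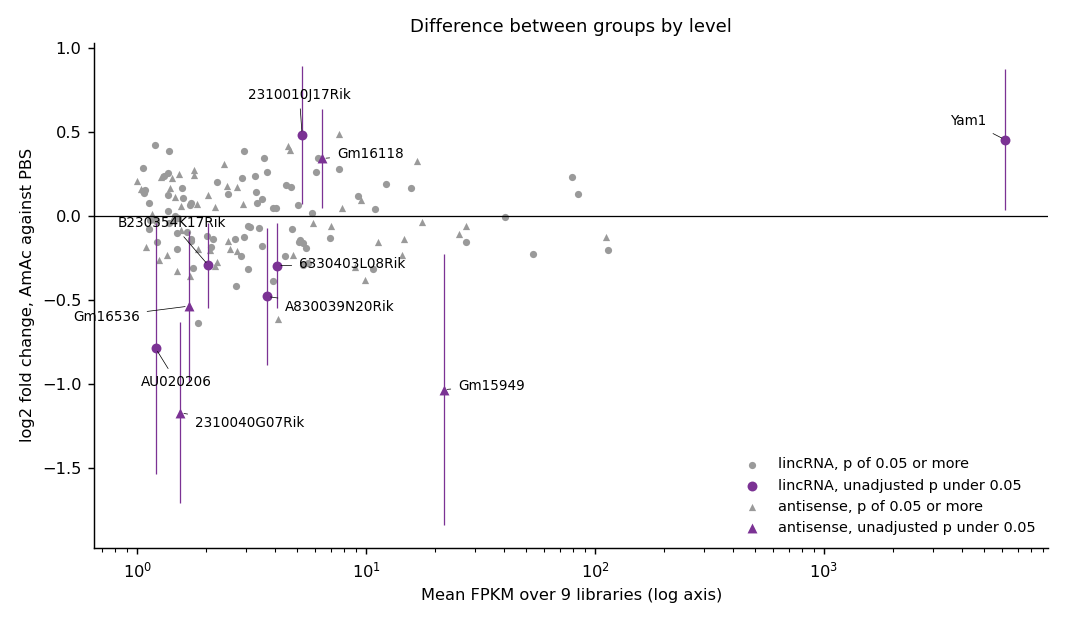
Log2 fold change of AmAc against PBS (vertical axis) against the mean FPKM over 9 libraries (horizontal log axis) for the 142 RNAs, circles for lincRNAs and triangles for antisense RNAs. The 10 with a limma unadjusted p under 0.05 are coloured, named and drawn with their 95% interval; they run from -1.17 (2310040G07Rik) to 0.49 (2310010J17Rik), and none passed the adjusted threshold.

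The antisense RNA 2310040G07Rik (ENSMUSG00000072852, chr5:76928368-76947758, 2 exons) had the smallest unadjusted p of the 142. It lies opposite Ppat, the enzyme that starts purine synthesis, without sharing exon bases. Its values were 2.34, 1.97, 3.40 and 1.999 FPKM in PBS and 1.42, 0.839, 0.815, 0.865 and 0.237 FPKM in AmAc. Every AmAc library was below every PBS library, and AmAc library 8 was the lowest. The means were 2.43 ± 0.672 (SD, n = 4) and 0.836 ± 0.420 (SD, n = 5), a log2 fold change of -1.17 (SE 0.25, 95% interval -1.71 to -0.63) with a limma unadjusted p of 0.000504 and an adjusted p of 0.527. These values rest on 4 to 68 reads per library. Its unadjusted p in limma stayed under 0.05 in 21 of 21 alternative fits, with log2 fold changes from -1.64 to -0.91. The RNA was picked for its small p and the fits reuse the same libraries, so they are no further support. Ppat averaged 8.16 ± 0.596 FPKM in PBS and 9.05 ± 1.32 in AmAc.

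Gm15949 (chr5:66985091-66985641) is the shortest of the 142, at 126 bases, and lies within Limch1, an actin-binding regulator of myosin, on the other strand. It measured 18.2, 31.5, 27.5 and 41.5 FPKM in PBS and 25.0, 19.4, 6.18, 18.04 and 8.56 in AmAc, on 20 to 175 reads. AmAc libraries 6 and 8 were far below all others, and the remaining AmAc libraries overlapped the PBS range at its lower end. The log2 fold change was -1.03 (SE 0.37), and Limch1 itself had one of -0.61 with a limma unadjusted p of 0.0270. Without AmAc libraries 6 and 8 the log2 fold change of Gm15949 was -0.46. The pair shares no exon bases in GENCODE M21.

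Gm16536 (chr9:45856769-45858357), opposite the secretase gene Bace1, measured 1.97, 2.13, 2.03 and 2.24 FPKM in PBS and 2.003, 1.64, 1.08, 1.41 and 0.625 in AmAc. Its PBS values were nearly level (SD 0.117, n = 4), while the AmAc values spread from the PBS level downwards, lowest in libraries 8 and 6. Bace1 had a log2 fold change of 0.10, against -0.53 (SE 0.21) for Gm16536. A830039N20Rik (chr14:23292291-23293643), inside the potassium channel gene Kcnma1 on its own strand, measured 4.94, 3.80, 4.10 and 4.81 FPKM in PBS and 3.94, 3.59, 1.99, 3.73 and 2.31 in AmAc. The log2 fold change was -0.48 (SE 0.19), again with the lowest values in AmAc libraries 6 and 8. Without these libraries the log2 fold changes of Gm16536 and A830039N20Rik were -0.25 and -0.20.

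The next pair had smaller differences. 6330403L08Rik (chr5:138995056-139000577), a 5522-base transcript opposite the growth factor gene Pdgfa, measured 4.30, 4.41, 5.07 and 4.66 FPKM in PBS and 4.06, 4.18, 3.06, 3.50 and 3.59 in AmAc. B230354K17Rik (chr17:45433852-45442544), which starts 145 bases from the splicing factor gene Cdc5l, measured 1.99, 2.40, 2.57 and 2.40 FPKM in PBS and 1.84, 1.89, 1.72, 1.95 and 1.67 in AmAc. In both, all 5 AmAc values were below all 4 PBS values. The log2 fold change was -0.29 (SE 0.12) for each, and -0.12 for 6330403L08Rik and -0.15 for B230354K17Rik with each library's trend on gene length removed. Their unadjusted p in limma was under 0.05 in 14 and 13 of 21 alternative fits. Pdgfa had a log2 fold change of 0.15 and Cdc5l one of 0.089.

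AU020206 and Gm21807 completed the 8 lower RNAs of smallest p. AU020206 measured 1.44, 1.02, 1.35 and 2.96 FPKM in PBS and 1.08, 1.22, 0.119, 1.31 and 0.346 in AmAc, on as few as 2 reads. Gm21807 measured 1.99, 1.95, 3.35 and 2.09 FPKM in PBS and 2.43, 1.502, 0.376, 1.89 and 1.03 in AmAc, on as few as 8 reads. In both RNAs AmAc libraries 6 and 8 were the lowest, and 1 PBS library stood above the rest. Without AmAc libraries 6 and 8 their log2 fold changes of -0.79 and -0.64 became -0.29 and -0.21. The endothelial genes were lowest in the same libraries, summing to 44.6 and 55.1 FPKM, and their part in these RNAs was not tested.

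Of the RNAs higher in AmAc, 2310010J17Rik (chr7:90124858-90129474) had the smallest unadjusted p. It starts 758 bases from Picalm, a clathrin adaptor gene. Its values were 4.83, 3.31, 4.62 and 3.84 FPKM in PBS and 4.04, 5.16, 8.64, 6.35 and 6.48 in AmAc. AmAc library 4 lay inside the PBS range and the other 4 AmAc libraries above it, for a log2 fold change of 0.49 (SE 0.19) and a limma unadjusted p of 0.0243. Picalm had a log2 fold change of -0.27.

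Gm16118 (chr8:114698439-114708006), opposite the oxidoreductase gene Wwox, was the only one of the 142 with all AmAc values above all PBS values. It measured 5.72, 5.03, 5.53 and 5.71 FPKM in PBS and 6.24, 6.31, 8.65, 6.04 and 8.76 in AmAc. AmAc libraries 6 and 8 were the highest, and the other 3 lay just above the PBS range. The log2 fold change was 0.34 (SE 0.13), beside -0.24 for Wwox. Without AmAc libraries 6 and 8 the log2 fold change of Gm16118 was 0.16, and that of 2310010J17Rik was 0.28.

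The other higher RNAs of smallest p had unadjusted p-values of 0.0656 to 0.110 in limma. RP24-79F8.3 (GENCODE name Gm7160), which starts 124 bases from Zcchc2, averaged 1.18 ± 0.126 FPKM in PBS (SD, n = 4) and 1.51 ± 0.177 in AmAc (SD, n = 5). Gm15417, opposite the zinc finger gene Zbtb7b, averaged 14.4 ± 1.43 and 18.6 ± 4.51 FPKM, and 1700007L15Rik, which starts 48 bases from Zfp148, averaged 1.10 ± 0.339 and 1.61 ± 0.579. Gm15564, opposite the ADP-ribosyltransferase gene Parp9, measured 5.73, 5.05, 8.83 and 4.44 FPKM in PBS and 11.4, 5.08, 5.22, 12.1 and 10.9 in AmAc. Its AmAc values fell at 2 separate levels, with libraries 5 and 6 at the PBS level and libraries 4, 7 and 8 above every PBS library.

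**Figure D4:**
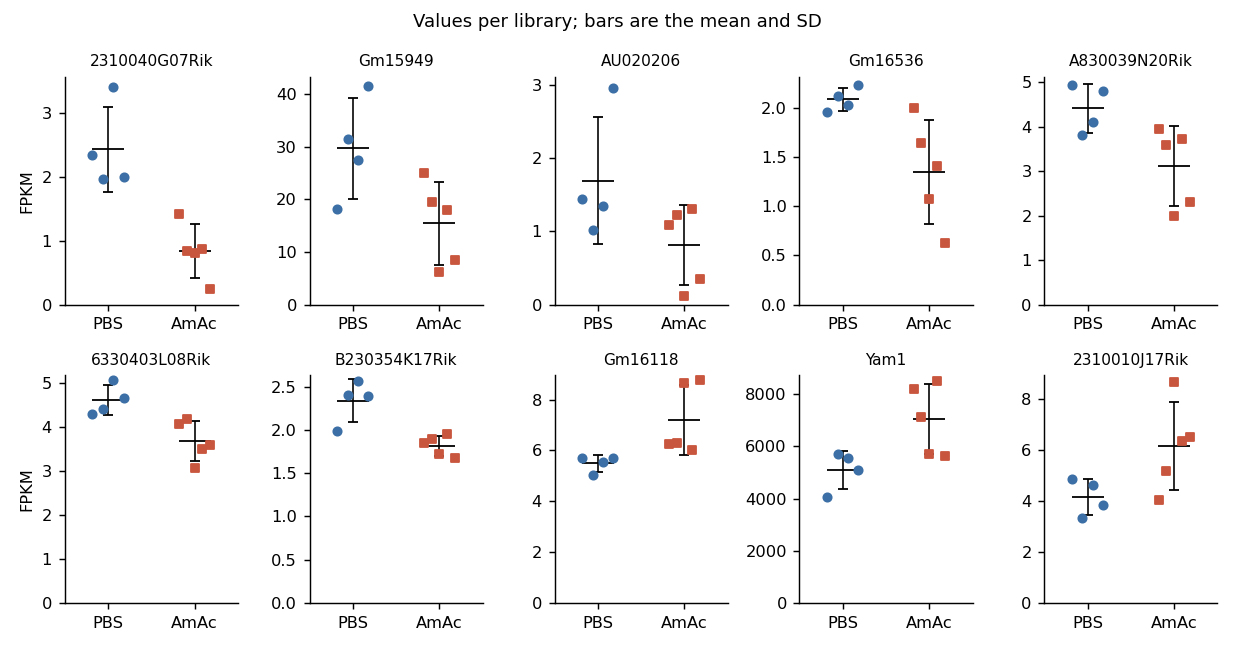
FPKM per library (vertical axes, from 0) of the 10 RNAs with a limma unadjusted p under 0.05, circles for 4 PBS and squares for 5 AmAc libraries in the order of their numbers, with horizontal bars for the mean and whiskers for the SD. The groups do not overlap for 2310040G07Rik, 6330403L08Rik, B230354K17Rik and Gm16118, and the lowest AmAc squares of Gm15949, AU020206, Gm16536 and A830039N20Rik are libraries 6 and 8.

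RNAs that host small nucleolar RNAs, which guide the modification of ribosomal RNA, were listed by name, and 11 of 21 in the table could be tested. Of these, 8 had higher and 3 lower means in AmAc. An unadjusted p under 0.05 in limma was found for 0 of the 11, beside 8.57% of all genes tested. The median log2 fold change of the 11 was 0.14. Over all 11337 genes tested it was -0.035, with 4979 higher. Over the 920 genes shorter than 1000 bases it was 0.17, with 686 higher. The 4 listed hosts that belong to the 142 were Snhg6, Snhg12, Snhg18 and 2410004N09Rik (Epb41l4aos). Their listed lengths were 816, 933, 1482 and 430 bases. Snhg6 measured 13.5, 9.58, 11.8 and 10.2 FPKM in PBS and 9.77, 12.4, 16.6, 11.8 and 14.6 in AmAc. 2410004N09Rik measured 4.25, 5.30, 5.45 and 5.56 FPKM in PBS and 5.12, 6.53, 5.98, 5.36 and 11.9 in AmAc, so that library 8 alone stood well above the PBS range. Snhg12 averaged 1.49 ± 0.0998 and 1.67 ± 0.366 FPKM, and Snhg18 averaged 1.85 ± 0.412 and 1.62 ± 0.333.

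Gm21747 (GENCODE name Mir133a-1hg) hosts a microRNA of striated muscle, miR-133a, and lies opposite Mib1. It measured 23.1, 13.1, 18.6 and 17.2 FPKM in PBS and 15.5, 18.6, 18.6, 16.1 and 17.5 in AmAc. The AmAc values lay within the PBS range, with a log2 fold change of -0.035 (SE 0.14). Of the listed microRNA hosts 2 could be tested, and 0 had an unadjusted p under 0.05 in limma, beside 8.57% of all genes.

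Airn, the imprinted RNA that silences Igf2r on the paternal chromosome in mouse, measured 2.23, 2.06, 3.08 and 2.65 FPKM in PBS and 3.15, 3.27, 2.46, 2.25 and 3.32 in AmAc. AmAc libraries 4, 5 and 8 were above every PBS library, and the log2 fold change was 0.17 (SE 0.15). Igf2r averaged 9.45 ± 0.816 FPKM in PBS (SD, n = 4) and 7.31 ± 2.68 in AmAc (SD, n = 5), and its log2 fold change was -0.42 (limma unadjusted p of 0.0874). Of the imprinted RNAs listed, 2 could be tested and 0 had an unadjusted p under 0.05 in limma, beside 8.57% of all genes. The 4 RNAs of the X-inactivation centre summed to 0.257 to 0.469 FPKM per library, and none belonged to the 142.

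Of RNAs named in earlier work on muscle, 8 could be tested, 5 with higher and 3 with lower means in AmAc and 2 with an unadjusted p under 0.05, beside 8.57% of all genes. Those 2 do not belong to the 142, and were 5330426P16Rik (Dubr) with a log2 fold change of -0.61 and 1500011K16Rik with one of 0.43. Besides linc-Myh, 2310001H17Rik averaged 3.36 ± 0.635 FPKM in PBS (SD, n = 4) and 3.64 ± 0.630 in AmAc (SD, n = 5). 1810058I24Rik, typed lincRNA here but annotated by RefSeq as coding for the short mitochondrial protein Stmp1, measured 15.02, 14.5, 15.5 and 13.6 FPKM in PBS and 12.8, 17.9, 19.2, 15.2 and 18.3 in AmAc. Its AmAc values spread to both sides of the PBS range, with a log2 fold change of 0.17 (SE 0.12). Gm20748 is the mouse RNA Braveheart (Bvht), known from heart cell differentiation, and averaged 3.17 ± 0.625 and 3.05 ± 0.858 FPKM. Of the antisense and divergent RNAs and genes of developmental factors listed, 5 could be tested and 3 had an unadjusted p under 0.05, beside 8.57% of all genes. Those 3, Hoxa11os and the coding genes Hoxa10 and Hoxc11, were higher in AmAc with log2 fold changes of 0.68, 0.26 and 0.41. None of them belongs to the 142. Gm20748 is the 1 of the 5 among the 142. Of the broadly expressed regulatory RNAs listed, 8 could be tested, 4 in each direction. Of these 8, 0 had an unadjusted p under 0.05 in limma, beside 8.57% of all genes.

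Of the 54 antisense RNAs, 45 overlapped a protein-coding gene on the other strand, and 23 shared exon bases with it. The genes opposite to them had a median of 8.65 FPKM, and the antisense RNA stood at a median of 41.9% of its partner. Among the 41 pairs with a tested partner, 23 differed in the same direction between the groups. A further 19 lincRNAs also overlapped a coding gene on the other strand, and 3 lay within one on the same strand. Sox6os, opposite the gene of the fibre-type factor Sox6, measured 5.05, 5.15, 6.67 and 6.11 FPKM in PBS and 5.70, 6.78, 2.41, 5.76 and 9.32 in AmAc. Its highest and lowest values were both AmAc libraries, 8 and 6. Sox6os was singled out for its partner after its values had been seen, as were the other RNAs of transcription factor genes below.

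Starts of 45 of the 142 RNAs (28 lincRNAs and 17 antisense) lay within 1000 bases of the start of a coding gene on the other strand. Their median log2 fold change was 0.098, with 30 higher and 15 lower, and that of the other 97 was -0.073, with 37 higher and 60 lower, a difference that was not tested. The median of the 45 was 0.021 without AmAc libraries 6 and 8, 0.052 without PBS library 4 and 0.0062 with each library's trend on gene length removed. Among the 42 pairs with a tested partner, 19 differed in the same direction. Junos, which overlaps the start of the early response gene Jun, measured 6.17, 7.14, 12.9 and 10.8 FPKM in PBS and 8.12, 8.64, 9.65, 9.19 and 12.5 in AmAc. All AmAc values of Junos lay within the PBS range, with a log2 fold change of 0.098 beside -0.44 for Jun. Foxo6os, 4001 bases from Foxo6, averaged 7.31 ± 2.32 FPKM in PBS (SD, n = 4) and 6.85 ± 1.11 in AmAc (SD, n = 5), while Foxo6 had a log2 fold change of -0.56 with a limma unadjusted p of 0.0133. Irx3os, opposite the homeobox gene Irx3, averaged 2.58 ± 0.601 and 3.09 ± 0.629 FPKM.

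**Figure D5:**
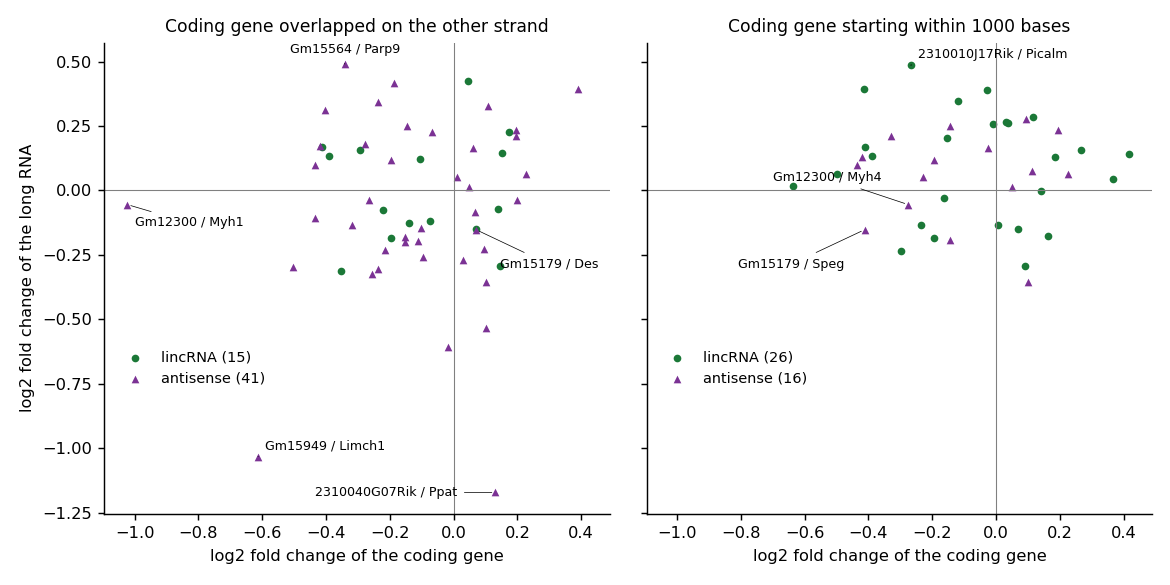
Log2 fold change of the long RNA (vertical axis) against that of the coding gene (horizontal axis), for genes overlapped on the other strand (left, 56 pairs) and genes that start within 1000 bases (right, 42 pairs), circles for lincRNAs and triangles for antisense RNAs. Pairs lie on all sides of the crossing of the zero lines in both panels; 31 of the 56 and 19 of the 42 have the same sign.

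The spread of the long RNAs between libraries of a group was compared with that of all genes, without a test. Their median coefficient of variation was 20.7% in PBS and 25.6% in AmAc, beside 13.9% and 19.5% over all genes tested, which had a median of 4.79 FPKM and 3015 bases. At least 1 library had under 10 reads for 11 of the 142. The largest coefficient in PBS was that of RP23-76C5.1, at 0.266, 0.355, 1.95 and 1.26 FPKM, and the largest in AmAc was that of RP23-293N22.1, at 1.25, 1.57, 0, 1.77 and 3.47 FPKM. The value of 0 was in AmAc library 6. Each was represented by at most 53 reads in any library. AmAc library 8 was the highest of the 9 libraries for 30 of the 142 RNAs, PBS library 8 for 29 and AmAc library 6 for 27. These are 21.1%, 20.4% and 19.01% of the RNAs, beside 23.1%, 23.9% and 8.45% of all genes tested. AmAc libraries 6 and 7 were each the lowest for 26 of the RNAs (18.3%), beside 34.8% and 5.46% of all genes. The 95% interval of the log2 fold change had a median half-width of 0.41 and reached beyond 1 in size for 11 RNAs.

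By listed length, the 67 RNAs under 1000 bases had a median log2 fold change of -0.023, beside 0.17 for all genes of that length. The 43 of 1000 to 2000 bases had 0.054 beside 0.099, and the 32 of 2000 bases or more had -0.097 beside -0.087. At the edge of the rule, 3110056K07Rik (1.002 FPKM), Gm15952 (1.04) and RP23-76C5.1 (1.06) were just inside the mean of 1, and Abhd11os (0.998), 9130204K15Rik (0.997) and D630024D03Rik (0.996) just outside. A minimum of 0.5 would have kept 223 RNAs and a minimum of 2 would have kept 90.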

How the data were processed

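Gastrocnemius RNA was sequenced in 4 PBS and 5 AmAc libraries. Gene-level FPKM values were deposited by the authors in 1 table. According to the submitters' processing notes the mm10 build was used, with DESeq2, HTSeq, STAR and TopHat in roles and versions that are not stated. How reads matching several genes were treated, and the strand counted, are not stated either. FPKM times gene length gave whole reads for 100% of values within 0.05 read. The 11337 genes whose mean FPKM reached 0.5 were tested with limma 3.58.1 in R 4.3.3 on log2(FPKM + 0.5), which understates changes of low genes, with a mean-variance trend and Benjamini-Hochberg adjustment; the script was tested on simulated data. Coordinates and neighbouring coding genes are those of the deposited table (mm10). Exons are from GENCODE M21 on the same build, found for 134 of 142 identifiers. By symbol or synonym, and not by place, 110 matched RefSeq. Summaries used Python 3.11.15 (pandas 2.3.3 and numpy 2.4.6) and plots matplotlib 3.10.9.

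The RNAs and gene lists were chosen with earlier results of these data known. The RNAs named were the 10 of highest level, the 8 of smallest p in each direction, those without overlap between groups, those on the lists, those at the edge of the rule and the most variable; exceptions are stated, and 1 of the named RNAs is not reported here. Alternatives changed the pseudocount (0.1 or 1), the filter, the scaling, the variance model, library weights, the gene length trend, the replicate block, the minimum level and the libraries; limma's voom test on the recovered reads was chosen after seeing the data. Same-numbered libraries did not deviate together: their correlations ranged from -0.337 to -0.0734, so the numbers were not used as pairs.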

Additional observations from a re-analysis of the deposited data

Results flagged for a closer look

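In 76 groups of values, the 2 groups of each of the 38 named RNAs, 6 had 1 library far from the others relative to the group's range, where chance alone gives about 1 in 20. Gm21807 was 3.35 FPKM in PBS library 7, with the other PBS libraries at 1.95 to 2.09. Gm20748 (Bvht) was 2.24 FPKM in PBS library 7, below the 3.40 to 3.54 of the others. Gm15952 was 1.20 FPKM in PBS library 5, above the 0.818 to 0.859 of the others. Snhg12 was 1.03 FPKM in AmAc library 5, below the 1.76 to 1.95 of the others. 2410004N09Rik (Epb41l4aos) was 11.9 FPKM in AmAc library 8, with the other AmAc libraries at 5.12 to 6.53. 3110056K07Rik was 2.45 FPKM in AmAc library 6, with the others at 0.665 to 1.09.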

How the results depend on the processing

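In all 21 alternative fits, 0 genes and 0 of the long RNAs passed the adjusted threshold in limma. All 16 RNAs of smallest p or without overlap kept the sign of their difference. They were picked from these same values, which the alternatives reuse, so the kept signs are no further support. At an unadjusted p under 0.05 the main counts were 972 genes and 10 RNAs. Leaving out each library in turn gave 310 to 1729 genes (2.73% to 15.3%) and 2 to 19 RNAs. There were 2 without PBS library 8, 16 without AmAc library 4 and 19 without AmAc library 7. The RNAs without overlap numbered 5 to 10 in place of 4, and the median was -0.039 to 0.020. Leaving out AmAc libraries 6 and 8 together gave 255 genes, 3 RNAs and 8 without overlap. A count without overlap can only stay or rise when libraries are left out. A fall below 4 was therefore excluded in advance, and the rise is no further support. The share of all genes without overlap was not computed for these fits. The replicate block, in 8 libraries, gave 259 genes and 3 RNAs, and changed no adjusted call; the libraries share only a number. Quantile normalization gave 2 RNAs without overlap and a median of 0.057 (0.082 for lincRNAs). With the gene length trend removed, 1 RNA had no overlap and the antisense median was -0.16. A minimum mean of 0.5 gave 18 of 223 RNAs, beside 8.57% of all genes. The cause of these shifts was not tested. The planned quasi-likelihood test was not run, since the deposited values are FPKM. The voom test gave 8 RNAs, beside 9.84% of all genes. Of 798 values of the named RNAs under alternatives, 797 moved by less than the replicate spread or kept their sign. The alternatives reuse the same libraries, so that count is no independent support. At 1 to 2 FPKM on short genes few reads limit what could be detected.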
